A study of Mus musculus with 4 samples.

Results

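The collagen genes of the mouse were followed on 4 single-dye Agilent arrays. Their probes were chosen by name alone, as every probe other than a control whose gene symbol reads Col, a chain type, the letter a and a chain number. This gave 59 probes of 40 genes, among 39429 probes and 31829 gene names on the array. The arrays hold RNA of Lin- cells from the fetal liver (FL) of *Ebf1*-/- mice, taken at midgestation and labelled by the submitters as early B cells around the pro-B stage. EBF1 is a transcription factor that B cell development requires, and the deletion is shared by all 4 samples, so that no array of cells with an intact *Ebf1* was used here. The cells of 2 samples (EMPTY) were infected with the retroviral vector MDH1-PGK-GFP alone, and the cells of the other 2 (*Mir195*) with the same vector carrying *Mir195*. All were cultured with SCF, IL-7 and Flt3-ligand at 10 ng/mL each. The methods give OP9 stroma cells as the layer on which the cells grew, for 7 days unless otherwise specified, and describe no sort before the RNA of the arrays was isolated. OP9 is a stromal cell line from the skull of newborn mice. The labels do not say whether replicates were separate cultures or animals, so p-values measure only the spread between these samples, which may be technical.

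Collagens are proteins in which 3 chains wind into a triple helix. Each chain repeats a triplet of amino acids that begins with glycine, and in the rough endoplasmic reticulum it is hydroxylated, folded with chaperones and then exported. Fibrillar collagens form the cables of bone, skin and tendon, type IV forms the sheet of basement membranes, type VI forms beaded filaments, and smaller classes decorate fibrils, anchor epithelia or span the cell membrane. Fibroblasts, osteoblasts and other mesenchymal cells are the main source of fibrillar collagens, whereas blood progenitors are known to make little of them. The miRNA in the virus belongs to the miR-15/16 family, which recognises its targets through the seed at bases 2 to 8.

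The mature mouse miRNA is shown because *Mir195* is the difference between the viruses. The methods took the insert from human genomic DNA, and the mouse sequence stands here as the reference. It lies on chr11:70235062-70235082, plus strand (RefSeq, GRCm38.p6), and its seed is in capitals.
mmu-miR-195a-5p: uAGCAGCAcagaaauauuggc

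The repeat that defines a collagen can be read in some of the 60-base probes themselves. Codons of glycine begin with GG, and 4 of them spaced by the triplet make the 30-letter pattern GGNNNNNNNGGNNNNNNNGGNNNNNNNGGN. It occurred in 4 of the 59 collagen probes (6.78%) and in 39 of all 39429 probes (0.0989%), and on the opposite strand in 0 of the collagen probes and 22 of all. The stretches of the 3 tested collagen probes that hold it are shown, from the array design, with the first letters of each glycine codon in capitals.
*Col14a1*, probe A_55_P2159522: GGaactcaaGGcccaagaGGtccccctGGg
*Col15a1*, probe A_55_P2060386: GGacagcctGGacttgatGGagcctctGGc
*Col25a1*, probe A_55_P2107711: GGagtaaaaGGagagaaaGGagacaccGGt

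The windows around gene starts, from 250 bases before to 50 bases after, were searched for CCAAT on both strands, a box known from collagen promoters. RefSeq windows (GRCm38.p6) were listed for 32 of the 40 genes, 35 windows in all. CCAAT was in 12 of these 35 windows (34.3%) and in 12289 of the 32851 windows of all genes (37.4%), so that collagens held it about as often as other genes. The GC box GGGCGG was in 21 of the 35 windows (60%) and in 35.7% of all windows. A piece around CCAAT, or around its complement ATTGG, is shown for each of 4 genes that hold it. These are the holders among the genes described below as lowest on *Mir195* replicate 1 and highest on *Mir195* replicate 2. *Col1a2* held it also at chr6:4505606-4505634, which is not shown.
*Col1a2*, chr6:4505497-4505525, plus strand: aaaagaatggaaCCAATttaagaagcccc
*Col4a1*, chr8:11312955-11312983, minus strand: tgcttgcccgggATTGGcgagccaagggg
*Col4a2*, chr8:11312761-11312789, plus strand: ccgaggagctccCCAATttgttggcgctg
*Col16a1*, chr4:130047715-130047743, plus strand: cggcggtgcaggCCAATggccagtgcctc
Of the 10 windows of that group of genes, 4 held CCAAT (40%) and 7 held the GC box (70%). No window was listed for *Col1a1* and *Col14a1* of the group. The windows of *Col4a1* and *Col4a2* overlap, and the GC box at chr8:11312800-11312829 was counted in both. A match is a description of the letters and not a binding site.

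Signal was found for 22 of the 40 collagen genes. A probe was tested when the scanner software placed it well above background on the 2 arrays of either virus. Of the 59 collagen probes 24 were, and 20 of these had such signal on all 4 arrays, beside 95.1% of all tested probes. Over all genes, 23731 probes were tested. The share of the 59 collagen probes that was well above background was 42.4% and 47.5% with EMPTY and 33.9% and 44.1% with *Mir195*, against 60.0% to 62.6% of all probes, and it was lowest on *Mir195* replicate 1. All chains of the short-chain network collagens lacked a tested probe (*Col8a1*, *Col8a2* and *Col10a1*), as did *Col2a1*, *Col5a2*, *Col5a3*, *Col11a1*, *Col24a1* and *Col27a1* of the fibrillar class. *Col4a3*, *Col4a5*, *Col6a6*, *Col12a1*, *Col13a1*, *Col18a1*, *Col19a1*, *Col22a1* and *Col28a1* were the others. Of the 35 probes that were not tested, 28 were well above background on no array, and their levels ran from -8.81 to -6.12. The other 7 were so on 1 or 2 arrays, among them *Col2a1*, the chain of cartilage fibrils, on EMPTY replicate 2 alone and *Col5a3* on *Mir195* replicate 2 alone. Among genes with several probes, 1 of 4 was tested for *Col25a1*, 1 of 3 for *Col4a4*, *Col15a1* and *Col16a1*, and 2 of 3 for *Col23a1*. *Col6a3*, *Col6a4*, *Col6a5* and *Col26a1* were not analysed here.

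Throughout, the level of a probe is its log2 signal minus the 75th percentile of its array, so that a level of 0 is the signal that 75% of the probes lie under. Levels of different probes are not set against each other, since probes differ in how they bind. Fold changes are the mean of the *Mir195* arrays minus the mean of the EMPTY arrays on this scale, with the standard error and the Benjamini-Hochberg adjusted p of limma over all 23731 tested probes. An exact permutation test of 2 arrays against 2 cannot give a two-sided p under 0.333, so none was used for single probes.

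**Figure D1:**
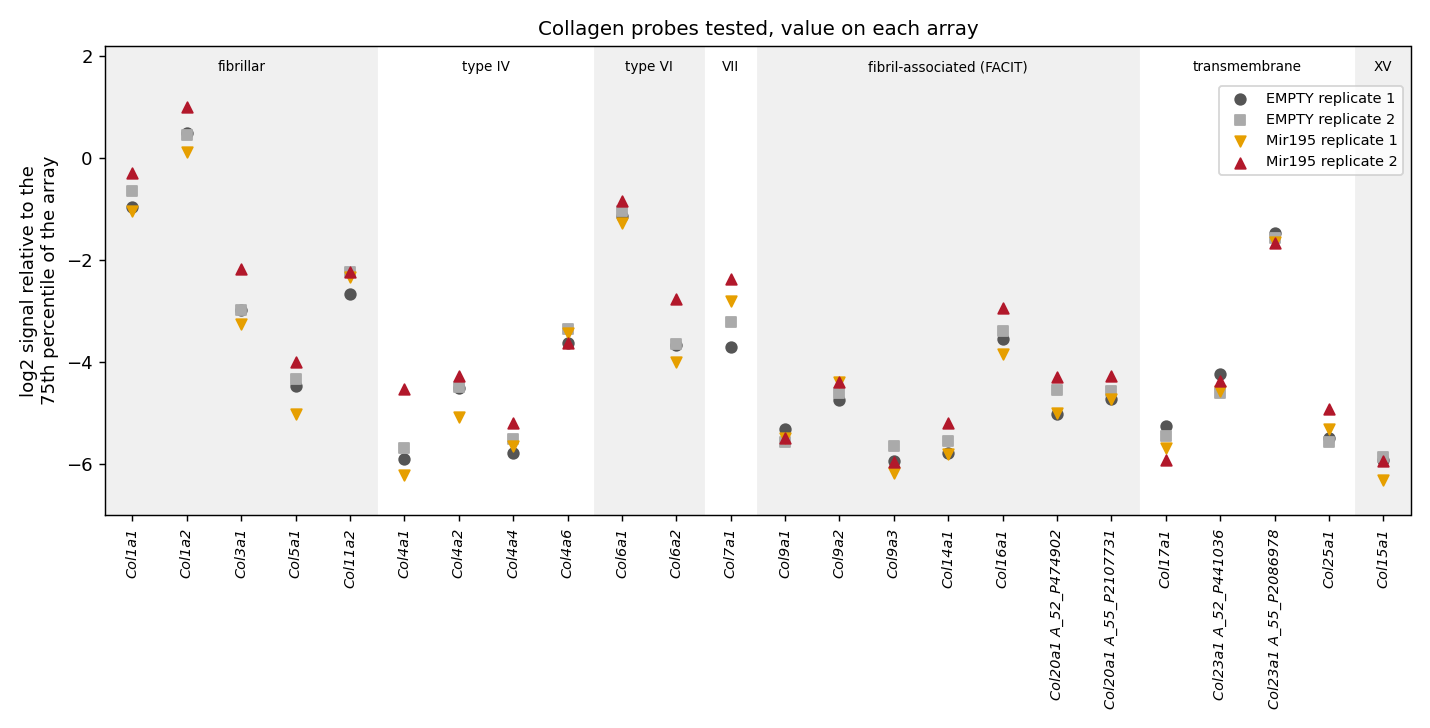
Levels of the 24 tested collagen probes (log2 signal minus the 75th percentile of the array, vertical axis) on each of the 4 arrays, grouped by collagen class along the horizontal axis. *Mir195* replicate 2 (upward triangles) is the highest of the 4 arrays in 17 of the 24 probes and *Mir195* replicate 1 (downward triangles) the lowest in 13.

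The fibrillar collagens with signal were *Col1a1* and *Col1a2*, the chains of type I collagen, *Col3a1*, the chain of type III collagen, *Col5a1*, a chain of the type V collagen that starts fibrils, and *Col11a2*, a chain of type XI collagen. *Col1a1* (chr11:94936224-94953042) had levels of -0.96 and -0.64 with EMPTY and -1.04 and -0.28 with *Mir195*. *Col1a2* (chr6:4505618-4541543) had 0.50 and 0.45 with EMPTY and 0.12 and 1.0 with *Mir195*. Both chains of type I collagen were thus lowest on *Mir195* replicate 1 and highest on *Mir195* replicate 2, so that the EMPTY arrays lay between the *Mir195* arrays. *Col3a1* (chr1:45311538-45349706) had -2.98 and -2.97 with EMPTY and -3.25 and -2.18 with *Mir195*, a 2.10-fold difference between the *Mir195* arrays against 1.01-fold between the EMPTY arrays. *Col5a1* had -4.46 and -4.32 with EMPTY and -5.02 and -4.00 with *Mir195*. The groups overlapped for all of these. *Col11a2* differed from the other fibrillar collagens, being lowest on EMPTY replicate 1, with -2.66 there, -2.23 on EMPTY replicate 2, and -2.32 and -2.23 with *Mir195*. Fold changes on the log2 scale were 0.14 (SE 0.29) for *Col1a1*, 0.09 (SE 0.31) for *Col1a2*, 0.26 (SE 0.37) for *Col3a1*, -0.12 (SE 0.35) for *Col5a1* and 0.17 (SE 0.18) for *Col11a2*, with adjusted p from 0.891 to 0.969. The methods do not say whether the RNA came from the whole culture. If it did, fewer cells of a type and less RNA per cell cannot be told apart.

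Among the chains of type IV collagen, *Col4a1* and *Col4a2*, which pair in nearly all basement membranes, lie head to head on chromosome 8 (chr8:11198423-11312889 and chr8:11312805-11449287). *Col4a1* had levels of -5.90 and -5.67 with EMPTY and -6.20 and -4.52 with *Mir195*. *Col4a2* had -4.50 and -4.48 with EMPTY and -5.07 and -4.27 with *Mir195*. Both were lowest on *Mir195* replicate 1 and highest on *Mir195* replicate 2, which differed 1.74-fold for *Col4a2*. No such fold is given for *Col4a1*, which was not well above background on *Mir195* replicate 1. The fold change was 0.42 (SE 0.56, adjusted p = 0.916 from limma) for *Col4a1* and -0.18 (SE 0.28, adjusted p = 0.930) for *Col4a2*. *Col4a4*, a chain of the network in the glomerulus, had -5.78 and -5.49 with EMPTY and -5.63 and -5.19 with *Mir195*. *Col4a6*, found in smooth muscle basement membranes, had -3.62 and -3.35 against -3.42 and -3.61, and its levels did not separate by virus or by replicate.

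*Col4a1* was printed 10 times on each array, which shows how much of its spread arose within an array. The mean of the 10 spots was -5.90 ± 0.38 and -5.67 ± 0.27 with EMPTY and -6.20 ± 0.36 and -4.52 ± 0.11 with *Mir195* (SD over spots of the same array, which are technical repeats). On *Mir195* replicate 2 all 10 spots were well above background and all of them lay above every spot of the other arrays, with a lowest spot of -4.65. On *Mir195* replicate 1 only 3 of 10 were well above background, against 7 and 9 on the EMPTY arrays.

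**Figure D2:**
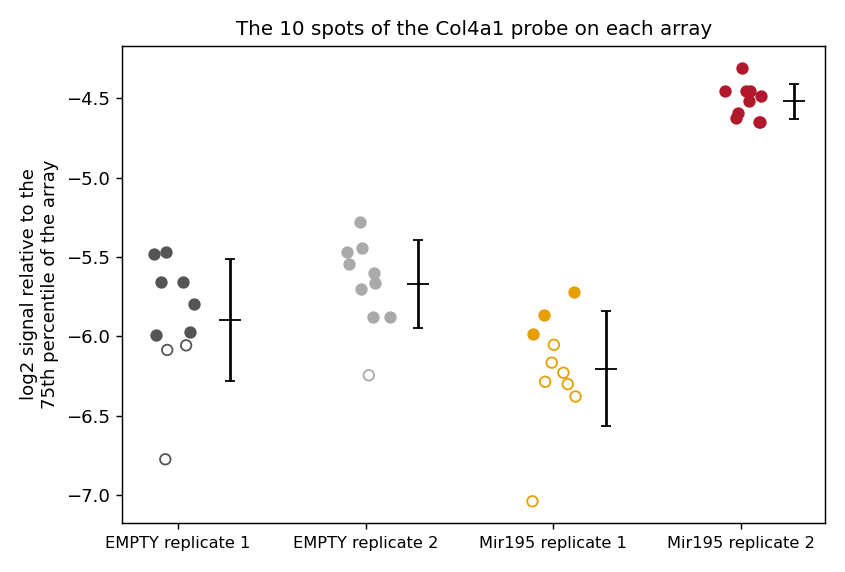
Levels of the 10 spots of the *Col4a1* probe (log2 signal minus the 75th percentile of the array, vertical axis) on each array. Filled points were well above background and open points were not, and the bar beside each array is the mean with the SD over its spots. The spots of *Mir195* replicate 2 lie between -4.65 and -4.31, above all spots of the other 3 arrays.

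*Col6a1* and *Col6a2*, both on chromosome 10 (chr10:76708792-76726044 and chr10:76595756-76623630, GRCm38.p6), encode chains of the type VI filaments around cells and followed the same order. *Col6a1* had levels of -1.14 and -1.04 with EMPTY and -1.28 and -0.83 with *Mir195*. *Col6a2* had -3.66 and -3.63 with EMPTY and -4.00 and -2.76 with *Mir195*. The *Mir195* arrays differed 1.36-fold for *Col6a1* and 2.36-fold for *Col6a2*, more than the EMPTY arrays did (1.07-fold and 1.02-fold). Their log2 fold changes were 0.03 (SE 0.19, adjusted p = 0.984 from limma) and 0.26 (SE 0.42, adjusted p = 0.930).

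*Col7a1* and *Col17a1* encode parts of the structure that fastens epithelia to their basement membrane, the first as anchoring fibril and the second as a membrane protein of hemidesmosomes, and they went in opposite directions. *Col7a1* (chr9:108953586-108984875) had levels of -3.70 and -3.21 with EMPTY and -2.79 and -2.37 with *Mir195*. Neither EMPTY array reached either *Mir195* array, and the difference of 0.87 on the log2 scale (1.83-fold, SE 0.24) was the largest of the tested collagen probes. It had an unadjusted p of 0.0164 and did not pass after adjustment (adjusted p = 0.530 from limma). *Col17a1* (chr19:47646341-47692042) had -5.26 and -5.44 with EMPTY and -5.69 and -5.91 with *Mir195*, so that both *Mir195* arrays were below. Its log2 fold change was -0.45 (SE 0.15), with an unadjusted p of 0.0314 and an adjusted p of 0.555 from limma, and it turned to 0.15 with the normexp background correction. *Col7a1* kept its direction under each alternative that was run.

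The fibril-associated collagens, which sit on the surface of fibrils and carry breaks in the triple helix, gave mixed orders. *Col16a1* had levels of -3.54 and -3.39 with EMPTY and -3.83 and -2.93 with *Mir195*, and *Col14a1* had -5.78 and -5.55 against -5.80 and -5.20. Both thus followed the order of the type I chains. *Col14a1*, however, was not well above background on *Mir195* replicate 1, with -5.80 there beside -5.78 on EMPTY replicate 1. *Col20a1* had 2 tested probes, and *Mir195* replicate 2 was highest for both. A_52_P474902 had -5.01 and -4.54 with EMPTY and -4.99 and -4.28 with *Mir195*, and A_55_P2107731 had -4.71 and -4.57 against -4.72 and -4.26.

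The chains of type IX collagen, which coats cartilage fibrils, did not follow that order. *Col9a2* had -4.73 and -4.59 with EMPTY and -4.39 and -4.38 with *Mir195*, without overlap, and a log2 fold change of 0.28 (SE 0.12, adjusted p = 0.655 from limma). *Col9a3* had -5.93 and -5.63 on the EMPTY arrays, and -6.17 and -5.95 with *Mir195*, where it was not well above background, so that no fold is given (adjusted p = 0.780 from limma). It was tested only through the EMPTY arrays, where it was higher. *Col9a1* had -5.30 and -5.57 with EMPTY and -5.48 and -5.49 with *Mir195*, which overlapped. The direction of *Col9a1* and *Col9a3* depended on the background correction. With normexp the log2 fold change of *Col9a1* turned from -0.05 to 0.28, and *Col9a3* turned from lower to higher with *Mir195*. That correction placed all 3 chains higher with *Mir195* without overlap, while *Col9a2* was higher without it too.

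The transmembrane collagens other than *Col17a1* were *Col23a1*, with 2 tested probes, and *Col25a1*, known from plaques in Alzheimer's disease and from motor neurons. *Col25a1* had -5.49 and -5.56 with EMPTY and -5.30 and -4.92 with *Mir195*, without overlap, with a log2 fold change of 0.42 (SE 0.17, adjusted p = 0.625 from limma). The *Col23a1* probe A_55_P2086978 had -1.47 and -1.56 with EMPTY and -1.64 and -1.65 with *Mir195*, without overlap, while A_52_P441036, with -4.23 and -4.60 against -4.56 and -4.36, overlapped. *Col15a1*, a collagen of basement membrane zones and the only multiplexin with signal, had -5.91 and -5.85 against -6.30 and -5.94. It was not well above background on *Mir195* replicate 1, and so was tested only through the EMPTY arrays. Its log2 fold change of -0.24 (SE 0.16, adjusted p = 0.817 from limma) became 0.21 with the normexp background correction.

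Over the virus comparison, limma called 0 of the 24 collagen probes, as it called 0% of all tested probes. At an unadjusted p under 0.05 there were 2 of 24 (*Col7a1* and *Col17a1*), or 8.33%, beside 8.34% of all tested probes, 1 higher (6.25% of all) and 1 lower (2.09% of all), so the collagens held no more of them than the whole array. The mean of the *Mir195* arrays was higher for 15 of 24 probes, beside 53% of all tested probes, and the median log2 fold change was 0.11 against 0.01 over all tested probes. The arrays of the viruses did not overlap for 7 of 24 collagen probes, beside 37.8% of all. Of these, 3 were higher on the *Mir195* arrays (*Col7a1*, *Col9a2* and *Col25a1*, beside 23.4% of all). The other 4 were lower (*Col9a3*, *Col15a1*, *Col17a1* and 1 probe of *Col23a1*, beside 14.4% of all). Among these 4, *Col9a3* was well above background on neither *Mir195* array, and *Col15a1* was not so on *Mir195* replicate 1. Both passed the filter only through the EMPTY arrays, where they were higher. Their place among the lower probes is thus partly set by the filter and is not read as a result. With the normexp background correction, 23 of the 24 had a higher mean with *Mir195*, beside 64.5% of all tested probes, and 16 did not overlap (49.9% of all), 15 of them higher (39.5% of all). The 4 arrays share a slide, on which EMPTY came before *Mir195*, and position and virus cannot be told apart.

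**Figure D3:**
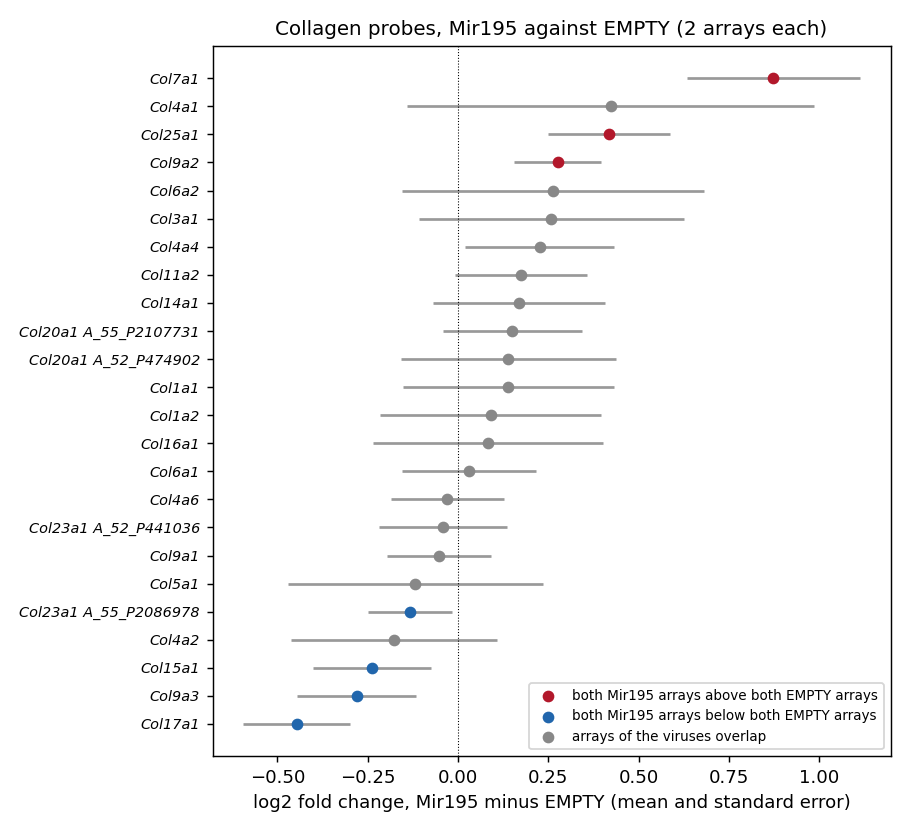
Log2 fold change of *Mir195* against EMPTY (horizontal axis) for the 24 tested collagen probes, as the mean with the standard error of limma. Red and blue points mark probes whose arrays did not overlap between the viruses. *Col7a1* lies at 0.87 and *Col17a1* at -0.45, and the widest errors belong to *Col4a1* and *Col6a2*.

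The collagens varied more between the *Mir195* arrays than between the EMPTY arrays. *Mir195* replicate 2 was the highest array in 17 of 24 collagen probes, beside 34.3% of all tested probes, and *Mir195* replicate 1 the lowest in 13, beside 15.2%. Both held for 11 probes of 11 genes, *Col1a1*, *Col1a2*, *Col3a1*, *Col4a1*, *Col4a2*, *Col5a1*, *Col6a1*, *Col6a2*, *Col14a1*, *Col16a1* and *Col20a1*, beside 6.39% of all tested probes. For *Col4a1* and *Col14a1* the lowest array was not well above background, and in the authors' table *Col14a1* was lowest on EMPTY replicate 2. For *Col20a1* the counted probe was A_55_P2107731, at -4.72 on *Mir195* replicate 1 beside -4.71 on EMPTY replicate 1. Its other tested probe, A_52_P474902, was lowest on EMPTY replicate 1. All 11 were also highest on *Mir195* replicate 2 with the other scalings, the normexp background correction and the authors' table. Lowest on *Mir195* replicate 1 were all 11 with each other scaling and 10 in the authors' table, but only 5 with the normexp background correction. Over all 24 probes, that correction left 22 highest on *Mir195* replicate 2, beside 44.9% of all tested probes, and 6 lowest on *Mir195* replicate 1, beside 9.12%. The median absolute difference of the 24 probes was 0.44 between the *Mir195* arrays and 0.17 between the EMPTY arrays, beside 0.19 and 0.15 over all tested probes, and with normexp it was 0.23 and 0.11, beside 0.15 and 0.12. The range over the 4 arrays had a median of 0.62 for the collagens and 0.33 for all.

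Set against the mean of the other 3 arrays, the collagens had a median of -0.17 on EMPTY replicate 1, 0.04 on EMPTY replicate 2, -0.28 on *Mir195* replicate 1 and 0.43 on *Mir195* replicate 2, where all tested probes had medians between -0.05 and 0.04. *Mir195* replicate 2 lay at least 0.5 above the others in 11 collagen probes, beside 10.2% of all tested probes, and *Mir195* replicate 1 at least 0.5 below them in 7, beside 3.98%. With the normexp background correction these counts were 7 (5.32% of all) and 0 (0.645% of all), and the medians of the collagens on *Mir195* replicates 1 and 2 were 0.0015 and 0.30, so that the low side was lost and the high side kept. Among the probes well above background on all arrays, *Col6a2* differed most, at 1.0 above the other arrays on *Mir195* replicate 2. The summed signal of the 22 genes, each by its brightest probe and in units of the 75th percentile, was 3.67 and 3.90 with EMPTY and 3.28 and 5.11 with *Mir195*. No test was made, as 1 array against the others has no replicate.

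**Figure D4:**
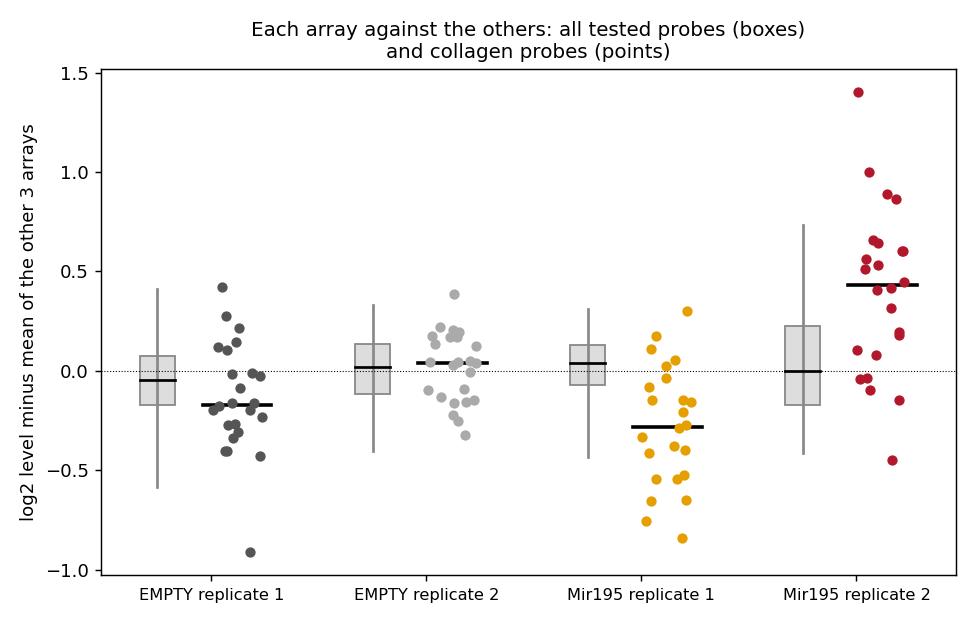
Log2 level on each array minus the mean of the other 3 arrays (vertical axis). Grey boxes span the 25th to the 75th percentile of all 23731 tested probes with their median, the lines reach from the 5th to the 95th percentile, and the points are the 24 collagen probes with their median as a black bar, which is 0.43 on *Mir195* replicate 2 and -0.28 on *Mir195* replicate 1.

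The genes that make, bind and break down collagen were read from fixed lists. Of the chain-modifying enzymes and chaperones, 10 of 23 tested probes were higher and 13 lower with *Mir195*, and limma called 0, also at an unadjusted p under 0.05. Their medians against the other arrays lay between -0.03 and 0.03. Among them were *Ppib*, a prolyl isomerase, *Colgalt1* (named Glt25d1 on the array), which glycosylates hydroxylysine, and *P4hb*, a subunit of prolyl 4-hydroxylase. *P4hb* had levels of 3.1 and 3.15 with EMPTY and 3.1 and 2.94 with *Mir195*. *Serpinh1*, the collagen-specific chaperone HSP47, had -2.88 and -2.66 with EMPTY and -2.61 and -1.99 with *Mir195*, and so was highest on *Mir195* replicate 2, as were 6 of the 23 probes of this list, beside 34.3% of all tested probes.

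Of the proteins that cleave and cross-link procollagen, 6 of 16 probes were higher and 10 lower, and of the collagen receptors 8 of 14 were higher and 6 lower, with 0 called in either list. At an unadjusted p under 0.05 the first held *Loxl2*, a lysyl oxidase that cross-links type IV collagen, with levels of -0.38 and -0.51 with EMPTY and -0.96 and -1.21 with *Mir195* for A_52_P480351, the only probe of the gene below it. The second held both probes of *Itga10*, an integrin chain that binds collagen, with -3.31 and -3.21 with EMPTY and -2.71 and -2.59 with *Mir195* for A_55_P2111533. None of these passed after adjustment (adjusted p = 0.530 from limma). Over all tested probes, 8.34% had an unadjusted p under 0.05. The basement membrane partners had 8 higher and 8 lower of 16 probes, and 0 called. *Lamb3*, a chain of the laminin to which type VII anchoring fibrils bind, was the only one at an unadjusted p under 0.05, with -3.08 and -3.22 with EMPTY and -3.55 and -3.78 with *Mir195* (adjusted p = 0.530 from limma). Of the collagenases and their inhibitors, 4 of 7 probes were higher and 0 were called, also at an unadjusted p under 0.05. Of these 7, 5 were highest on *Mir195* replicate 2, 6 lowest on *Mir195* replicate 1 and 4 both. In the same order the counts were 7, 7 and 3 of 16 for cleavage and cross-linking and 7, 6 and 4 of 16 for the basement membrane partners. For the receptors they were 6, 4 and 2 of 14, and the shares of all tested probes were 34.3%, 15.2% and 6.39%. *Mmp13*, a collagenase, had -5.73 and -6.36 with EMPTY and -6.48 and -4.53 with *Mir195*, and was not well above background on *Mir195* replicate 1.

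The collagen-binding matrix proteins were mostly highest on *Mir195* replicate 2 and lowest on *Mir195* replicate 1. Of their 9 tested probes, 8 were highest on *Mir195* replicate 2, 7 lowest on *Mir195* replicate 1 and 6 both. Of all tested probes, 34.3%, 15.2% and 6.39% were. Of the 16 genes of the list 8 had a tested probe, and *Dcn*, *Lum*, *Dpt*, *Postn*, *Aspn*, *Kera* and *Prelp* were well above background on no array. Limma called 0 of the 9, and *Comp* alone had an unadjusted p under 0.05 (0.0489), beside 8.34% of all tested probes. *Sparc*, which binds collagen and aids its assembly, had levels of 2.51 and 2.63 with EMPTY and 2.47 and 3.41 with *Mir195*. *Fn1*, the fibronectin gene, had 1.30 and 1.29 with EMPTY and 1.11 and 2.15 with *Mir195*.

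Markers of mesenchymal stroma, with no collagen among them, were mostly highest on *Mir195* replicate 2 too. Of the 18 genes, 9 had a tested probe, and limma called 0 of their 10 probes. *Thy1* alone had an unadjusted p under 0.05 (0.0133, lower with *Mir195*), beside 8.34% of all tested probes. Of these 10 probes 8 were highest on *Mir195* replicate 2, 7 lowest on *Mir195* replicate 1 and 6 both, beside 34.3%, 15.2% and 6.39% of all. *Thy1* and *Bgn* were highest on EMPTY replicate 1, and *Pdgfrb* and *Fbn1* were lowest there. *Fn1* and *Bgn* also stand in the list of collagen-binding matrix proteins. The medians of the stroma probes against the other arrays were -0.21, 0.02, -0.37 and 0.72, in the order of EMPTY replicates 1 and 2 and *Mir195* replicates 1 and 2. The stromal chemokine gene *Cxcl12* had 0.40 and 0.48 with EMPTY and 0.34 and 1.35 with *Mir195*. The summed signal of the list, without *Thy1*, which lymphoid cells also carry, was 5.43 and 5.78 with EMPTY and 5.16 and 9.35 with *Mir195*, and with *Thy1* it was 17.3, 17.1, 13.7 and 16.3. The defining markers *Pdgfra*, *Cdh11*, *Dcn*, *Lum*, *Postn*, *Igfbp7*, *Twist1* and *Prrx1* were well above background on no array. The part of stroma cells in the collagen values was not tested.

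Blood cell markers, by contrast in their values, had signal for all 12 genes. Of their 19 probes, 7 were highest on *Mir195* replicate 2 (34.3% of all tested probes) and 0 lowest on *Mir195* replicate 1 (15.2% of all). The medians against the other arrays lay between -0.07 and 0.05, and the summed signal was 384 and 402 with EMPTY and 400 and 378 with *Mir195*. Of 8 hepatocyte markers, 1 had a tested probe (*Apoa2*), and *Alb* and *Afp* were well above background on no array. The markers of osteoblasts had 3 of 6 genes tested, with 3 probes. Of these, 2 were both highest on *Mir195* replicate 2 and lowest on *Mir195* replicate 1, beside 6.39% of all tested probes. Chondrocyte markers had 3 of 7 genes tested, endothelium 3 of 8, stellate cells and pericytes 2 of 7, adipocytes 6 of 7 and megakaryocytes 4 of 6, with 0 probes called by limma in each list. On *Mir195* replicates 1 and 2 the medians against the other arrays were -0.21 and 0.39 for endothelium, -0.08 and -0.10 for adipocytes, -0.48 and 1.0 for osteoblasts, 0.05 and 0.23 for chondrocytes, 0.11 and -0.18 for stellate cells and pericytes, and 0.26 and 0.07 for megakaryocytes. The medians of the endothelial markers thus lay near those of the collagens on both arrays. Of their 4 tested probes, 1 was lowest on *Mir195* replicate 1 and highest on *Mir195* replicate 2, beside 6.39% of all tested probes. Their summed signal was 2.82 and 2.74 with EMPTY and 2.91 and 2.37 with *Mir195*, lowest on *Mir195* replicate 2. Most of that sum was the *Kdr* probe A_55_P2094469, with levels of 1.33 and 1.31 against 1.43 and 1.01. The *Kdr* probe A_51_P316553, left out of the sum, had -0.11 and -0.56 against -0.30 and 0.06. It and *Cdh5* were highest on *Mir195* replicate 2, and *Stab2* was highest on EMPTY replicate 1. *Tek*, *Emcn*, *Tie1*, *Cldn5* and *Esam* were well above background on no array. The part of endothelial cells in the collagen values was not tested.

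**Figure D5:**
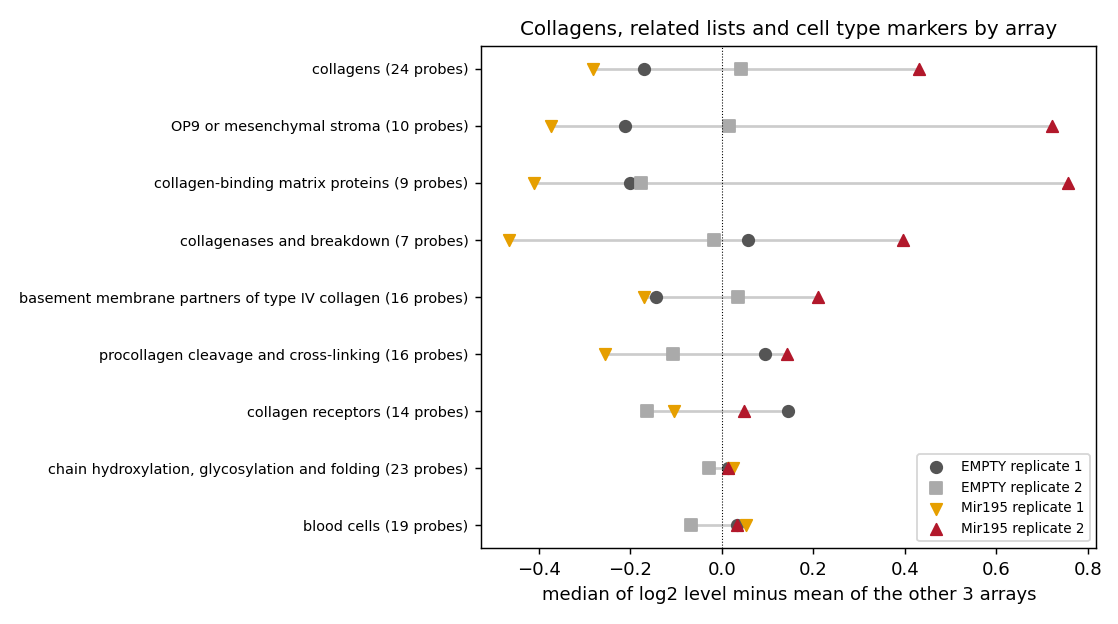
Median, over the tested probes of each list, of the log2 level on an array minus the mean of the other 3 arrays (horizontal axis), with 1 marker per array. On *Mir195* replicate 2 the collagens lie at 0.43, the stroma markers at 0.72 and the collagen-binding matrix proteins at 0.76, while the blood cell markers and the chain-modifying enzymes stay within 0.07 of 0 on all arrays.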

How the data were processed

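The authors deposited spot intensity values from Agilent Feature Extraction 11.5.1.1 (per the labels), after subtraction of background, for arrays of the type 4×44K v2, and a table of log2 values normalized to the 75th percentile. From the deposited intensity, the log2 value of each spot was taken, outlier spots (21 to 65 on each array) were dropped, spots of a probe were averaged and the 75th percentile of each array was subtracted, as in the methods. Tested were 23731 probes, those with signal well above background on the 2 arrays of either virus and no lost value, by lmFit and eBayes (limma 3.58.1, R 4.3.3, files read with the data.table package, version 1.17.8), two-sided, with Benjamini-Hochberg adjustment and a threshold of 0.05. The tests were tried on simulated data. Arrays had a signal of 902 to 1127 at the 75th percentile over a median background of 38 to 39. The number of arrays limits the precision. Samples were grouped by their titles. Gene symbols of 56 collagen probes matched GRCm38.p6 by accession. Alternatives were other background correction, scaling, filters, variance estimates, the authors' table, a replicate block, each array left out and the methods' t-test, a one-sample test that the methods do not tie to the arrays, run here on the differences of same-numbered arrays.

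The members, lists and comparisons were chosen with earlier results of these data known. All member genes with a tested probe are given with their values on each array, the others by name, and named genes of the lists were chosen after their values were seen.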

Additional observations from a re-analysis of the deposited data

How the results depend on the processing

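Under the alternatives other than leaving out an array, limma called 0 collagen probes at an adjusted p under 0.05. For single collagen probes, fits with 1 array left out are given by effect size only, and whether a probe passed in them is not stated. The counts over sets of probes from these fits, given below, are not read as results, since 1 virus then has only 1 array. Without *Mir195* replicate 1, the lower of the *Mir195* arrays for both genes, the log2 fold change was 1.26 for *Col4a1* and 0.88 for *Col6a2*. In those fits the lone array is assumed to vary like the other virus. Leaving out 1 array also gave 0 to 10 probes at an unadjusted p under 0.05, 6 to 18 probes higher with *Mir195*, a median log2 fold change from -0.20 to 0.39, 0 to 6 calls in the lists and 0 to 904 calls over all probes. The collagen probes at an unadjusted p under 0.05 numbered 4 in the authors' table and 5 with the normexp background correction. They numbered 1 with eBayes using trend and robust estimation and 1 with the replicate block. Crossed pairing of the replicates, which was added after seeing the data, also gave 1. In the main fit there were 2 of 24, beside 8.34% of all tested probes. The shares of all tested probes under the other settings are not given here, so their counts are not read against the whole array. Over all probes there were 3 calls with median scaling and 5 with the replicate block. Deviations of arrays with the same number correlated with r = -0.101 over 23731 probes, and nothing in the labels pairs them. They were thus not treated as pairs in the main fit. Only the replicate block, the crossed pairing and the methods' t-test, run as alternatives, joined arrays across the viruses.

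With the normexp background correction, 23 probes were higher with *Mir195* (64.5% of all tested probes were), 16 did not overlap (49.9% of all), the median for *Mir195* replicate 1 against the other arrays was 0.0015, 6 probes were lowest on that array and 5 were lowest on it and highest on *Mir195* replicate 2. The log2 fold change turned with this correction to 0.21 for *Col15a1*, 0.15 for *Col17a1*, 0.20 for *Col23a1* (A_52_P441036), 0.11 for *Col4a2*, 0.17 for *Col4a6*, 0.18 for *Col5a1*, 0.28 for *Col9a1* and 0.16 for *Col9a3*. In the authors' table it turned to -0.0070 for *Col16a1*, 1.14 for *Col23a1* (A_52_P441036, which that table lists at -2.15 on *Mir195* replicate 1 against -4.56 from the intensity), 0.038 for *Col4a6* and 0.036 for *Col5a1*. With median scaling it turned to -0.014 for *Col16a1*, -0.0077 for *Col1a2* and -0.067 for *Col6a1*, and with quantile normalization to -0.0098 for *Col16a1* and -0.0097 for *Col6a1*. The normexp background correction was run with an offset of 50, while the *Col4a1* spots had median signals of 12.3 to 40.7 in the deposited intensity. The causes of these changes of direction, this offset among them, were not tested. The median of all tested probes was 0.07 with normexp and -0.08 with median scaling, against 0.01.

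With 1 array left out the log2 fold change ranged across 0 from -0.039 to 0.39 for *Col11a2*, -0.13 to 0.47 for *Col14a1*, -0.37 to 0.54 for *Col16a1*, -0.24 to 0.52 for *Col1a1*, -0.35 to 0.53 for *Col1a2*, -0.21 to 0.49 and -0.080 to 0.38 for the *Col20a1* probes A_52_P474902 and A_55_P2107731, -0.23 to 0.15 for *Col23a1* (A_52_P441036), -0.28 to 0.79 for *Col3a1*, -0.42 to 1.26 for *Col4a1*, -0.58 to 0.22 for *Col4a2*, -0.17 to 0.11 for *Col4a6*, -0.63 to 0.39 for *Col5a1*, -0.19 to 0.25 for *Col6a1*, -0.35 to 0.88 for *Col6a2* and -0.19 to 0.082 for *Col9a1*. Under no alternative run did *Col7a1*, *Col9a2*, *Col4a4*, *Col25a1* or the *Col23a1* probe A_55_P2086978 change direction. The methods' t-test, run on the differences of same-numbered arrays, which the labels do not pair, passed *Col7a1* and *Col17a1* among the collagens before adjustment. It passed 0 of them after adjustment, and its share over all tested probes is not given here. Most collagen signals were faint, with the *Col4a1* spots at medians of 12.3 to 40.7 on the 4 arrays.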
